A study of Mus musculus with 3 samples.

Results

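The genes described here encode proteins that the liver secretes into blood plasma, read in mature medullary thymic epithelial cells (mTECs). They were chosen with earlier results of these data known. The list held 39 gene symbols: albumin and other carriers, apolipoproteins, coagulation factors, acute phase proteins and complement components. Of these, 38 had a probe set with a single gene symbol, among 19937 such genes on the array; the complement gene C3 was not analysed here. Each value was judged against olfactory receptor genes, a family with little expression beyond the olfactory epithelium, whose readings serve as the background of each array.

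The series compared mTECs of 3 mouse genotypes, all labelled as strain C57b/6 and 6 weeks old, with 1 library each. WT mice carried Sirt1fl/fl, that is loxP-flanked Sirt1 with no Cre. Sirt1cKO mice carried Sirt1fl/fl and Foxn1-Cre, a Cre driven from a thymic epithelial gene. AireKO mice were Aire-/-, with no floxed allele named. Cells were sorted as EpCAM+, CD45-, Ly51low and MHC-II high, typically from pools of 3 mice. Their RNA was amplified and read on Mouse Gene 1-ST arrays from Affymetrix. With 1 library a genotype there is no replicate check and no p-value, and precision is limited by the number of arrays. Each difference compares 2 libraries, not the conditions.

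Medullary thymic epithelial cells transcribe genes of many peripheral organs and show the products to developing T cells, which removes or diverts T cells that recognise them. The nuclear protein Aire drives a large part of this transcription, and Sirt1 is a protein deacetylase. Some mTECs also take on programmes of other tissues under lineage transcription factors, among them gut-like and liver-like cells. In the body, hepatocytes make most plasma proteins under HNF1, HNF4, FOXA and C/EBP factors, while intestinal cells make several apolipoproteins and macrophages make Apoe and some complement.

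The labels could not be checked by the targeted genes. On the log2 scale Aire had a level of 11.97 in WT, 11.55 in AireKO and 11.24 in Sirt1cKO, and Sirt1 11.40, 11.42 and 11.27 in the same order. A whole-transcript probe set need not lie in the deleted part. Title and description also disagree for both knockout libraries, since each description gives the genotype of the other. AireKO and Sirt1cKO stand here for the libraries labelled so by title, and which knockout a value belongs to, as well as the sign of each difference between the 2 knockout libraries, depends on the titles being right. Sex-linked genes were unequal as well, with Xist at 12.17, 6.75 and 11.46 and the Y-linked gene Eif2s3y at 4.23, 9.75 and 8.92, and the MHC class II gene H2-Ea stood at 13.23 in AireKO against 5.60 and 5.90. Genotype cannot be told apart from these differences. H2-Ea was above background in AireKO alone, and whether the 3 libraries share the labelled strain was not tested. All 11 mTEC identity genes on the array, Aire and Fezf2 among them, were above background in all 3 libraries. In AireKO, 3 of them were at least 2-fold lower than in WT, Krt5, Cldn3 and Cldn4, the first 2 only without rescaling and Cldn4 not after median centring.

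Background, the 95th percentile of the olfactory receptor genes, lay at 6.02 on the log2 scale in WT, 6.34 in Sirt1cKO and 6.89 in AireKO. Above that level were 28 of the 38 liver genes in WT, 23 in Sirt1cKO and 15 in AireKO, or 73.7%, 60.5% and 39.5%. Of all genes on the array, 72.7%, 67.1% and 56.1% were above it in the same libraries. No liver gene was above background in a knockout library without being so in WT. WT also had the lowest background, so this outcome depends in part on the unequal backgrounds. Apoh, at 6.29 in AireKO and 5.88 in WT, was within background in AireKO but would have passed the WT level. The 10 that were never above it were Afp, Ahsg, Apoh, Fga, F9, Plg, Apcs, C6, C9 and Hc, with log2 levels from 4.27 to 6.29. Where the dim side of a comparison was within background, the background value stands in its place and the fold is given as "at least". Where no such bound can be drawn, no fold is given.

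**Figure D1:**
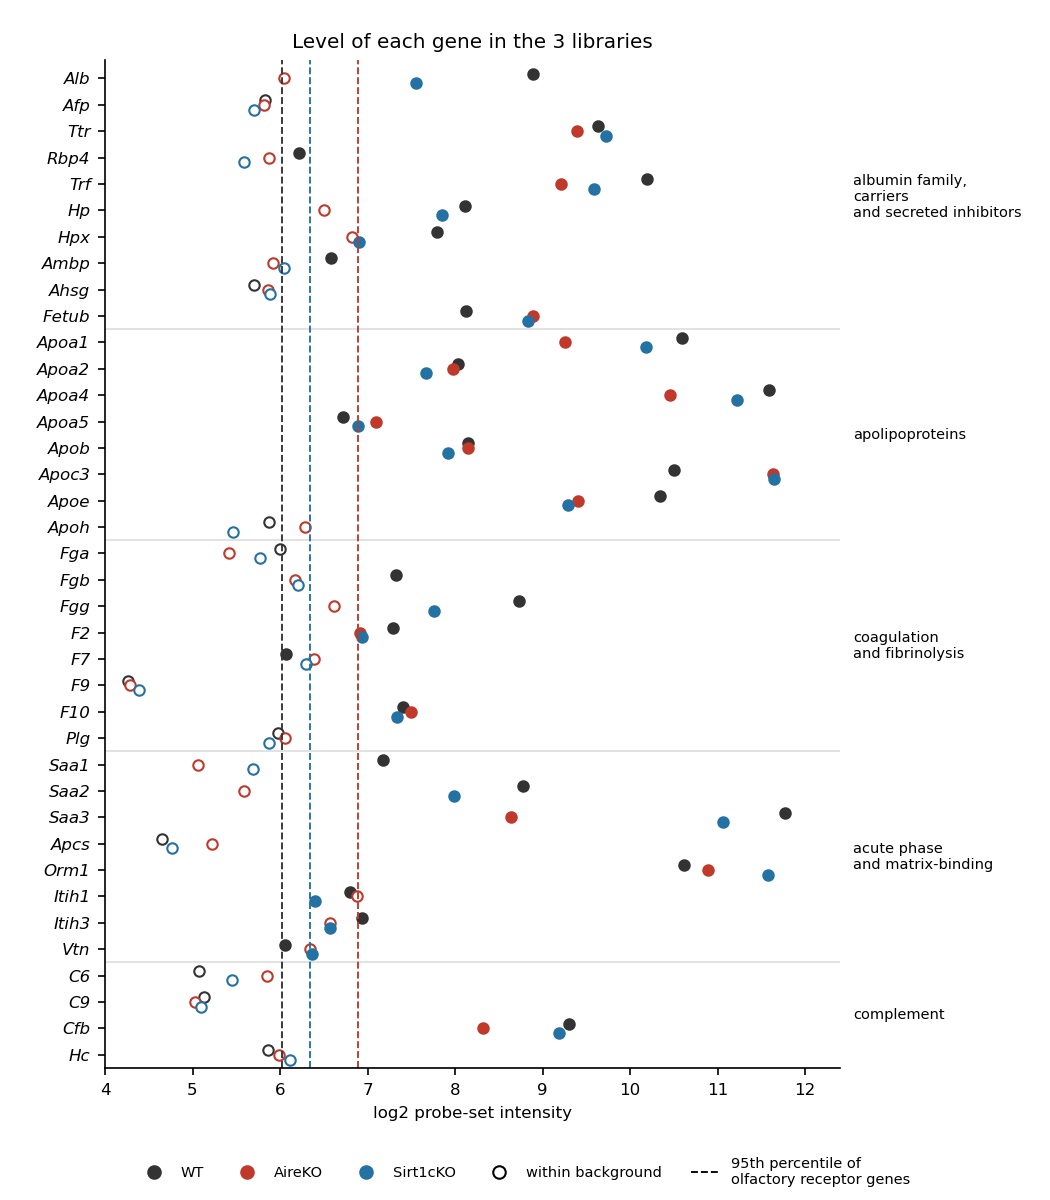
Log2 probe-set intensity (horizontal axis) of the 38 liver plasma genes in WT, AireKO and Sirt1cKO, 1 point per library; open points are within background and dashed lines mark the 95th percentile of olfactory receptor genes in each library. The AireKO line, at 6.89, lies to the right of the WT line, at 6.02, and Saa3, Saa2 and Alb have their widest gaps between WT and AireKO.

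In the library labelled AireKO, 7 of the 38 genes were at least 2-fold lower than in WT and 1 was at least 2-fold higher. The lower genes were Saa3, Saa2, Alb, Fgg, Hp, Apoa1 and Apoa4, and the higher gene was Apoc3. That is 18.4% of the liver genes on the lower side, against a background of 4.62% of all genes on the array, and 2.63% on the higher side, against 1.53%. The set was chosen with earlier results of these data known, so these shares describe it and are not an independent test. Among genes above background in WT or AireKO, 7 of 28 liver genes, or 25.0%, and 6.33% of all genes were lower. The median difference over all 38 was -0.17 on the log2 scale, against 0.02 over all genes. Of the 38, 23 lay below 0, against 9655 of 19937 over all genes, and for 15 of the 38 no fold could be given. Most of the set was counted in neither direction, and the lower genes came from 4 of its 5 roles.

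In the library labelled Sirt1cKO, 2 genes were at least 2-fold lower than in WT, Alb and Apoe, and Apoc3 was again the 1 that was higher. The lower share was 5.26%, against 0.948% of all genes, and the higher share 2.63%, against 0.466%. These shares carry the same limit from how the set was chosen. The median difference was -0.25, against 0.00 over all genes, with 26 of 38 below 0, against 9869 of 19937, and 12 of the 38 had no fold. Both comparisons use the same WT library, and Alb was the 1 gene counted as lower in both. Under the exchanged labels of the description fields, the counts of the 2 knockout libraries change places.

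**Figure D2:**
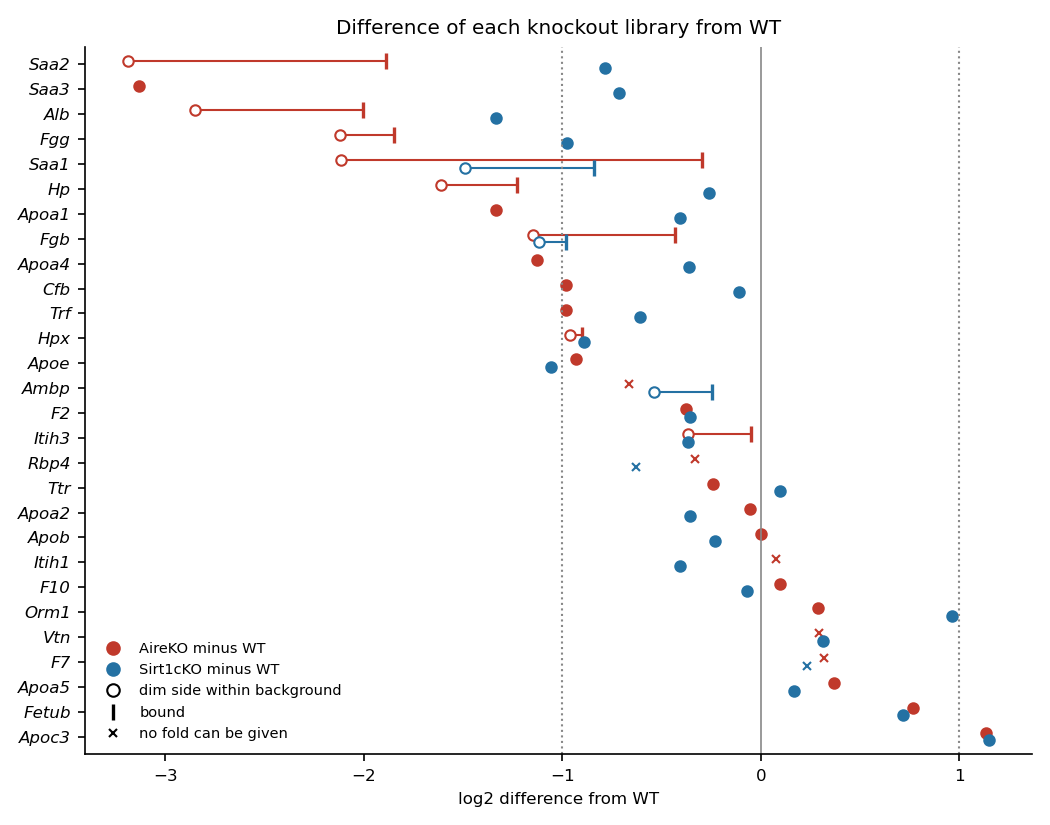
Log2 difference from WT (horizontal axis) in AireKO and Sirt1cKO for the 28 genes above background in at least 1 library. An open circle has its dim side within background and is joined to its bound, a cross marks a pair for which no fold can be given, and dotted lines mark 2-fold. Saa3 lies at -3.14 in AireKO and -0.71 in Sirt1cKO, and Apoc3 lies right of the 2-fold line in both.

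The counts moved with the scaling of the arrays. In AireKO, the 7 became 6 after quantile normalization, 6 after loess and 5 after median centring, while the share of all genes went from 4.62% to 2.25% after median centring. Alb, Apoa1, Fgg, Saa2 and Saa3 were counted under all 4 scalings, while Hp lost the count after median centring and Apoa4 after each of the 3 rescalings. Median centring moved all AireKO differences by 0.27, which put the median of the set at 0.10, against 0.29 over all genes. With background at the 99th percentile the count in AireKO was 6, since Hp, at -0.52, lost it, and the log2 bounds of Alb, Saa2 and Fgg went from -2.01, -1.89 and -1.85 to -1.30, -1.18 and -1.14. In Sirt1cKO, Alb was counted under all 4 scalings, and Apoe, at -1.06, no longer reached 2-fold after any of the 3 rescalings, at -0.96 after median centring.

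**Figure D3:**
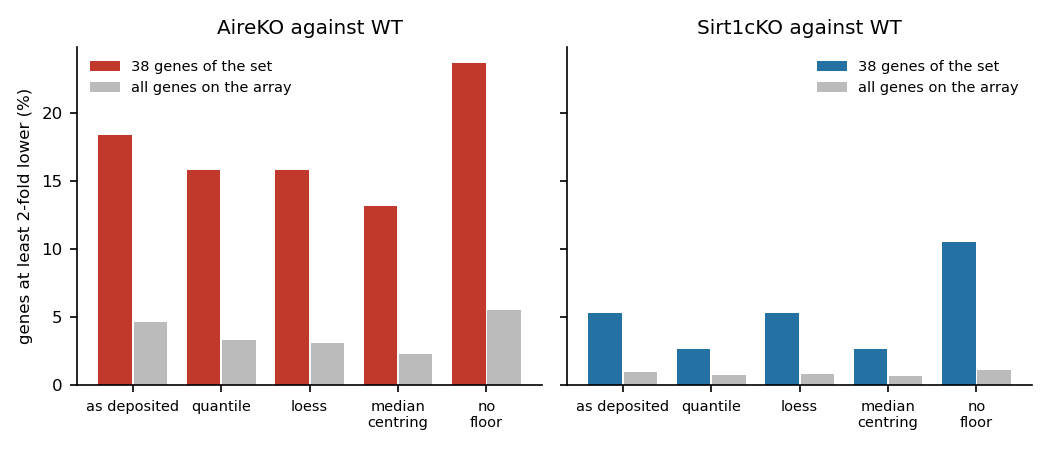
Percent of genes at least 2-fold lower than in WT (vertical axis, from 0) among the 38 liver plasma genes and among all genes on the array, for values as deposited, after 3 rescalings and with no background floor. In AireKO the set stands at 18.4% against 4.62% as deposited, and in Sirt1cKO at 5.26% against 0.948%. The set was chosen with earlier results of these data known.

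Among albumin and the carriers, 8 of 10 genes were above background in WT, against 3 in AireKO. Alb, which encodes the main carrier protein of plasma, had a log2 level of 8.89 in WT, 6.04 in AireKO and 7.56 in Sirt1cKO. It was highest in WT and within background in AireKO, at least 4.01-fold lower there and 2.52-fold lower in Sirt1cKO. Hp, which encodes the haemoglobin scavenger haptoglobin, stood at 8.11, 6.50 and 7.85. It was within background in AireKO, at least 2.34-fold lower than in WT, and differed by -0.26 in Sirt1cKO. Hpx, the haem carrier haemopexin, stood at 7.79, 6.83 and 6.90. It was within background in AireKO, at least 1.87-fold lower than in WT, a bound that was not counted at 2-fold. In Sirt1cKO Hpx was 1.85-fold lower. Trf, the iron carrier transferrin, stood at 10.19, 9.21 and 9.59, with differences of -0.98 and -0.61.

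Ttr and Fetub differed from these carriers. Ttr, which encodes the thyroid hormone carrier transthyretin, stood at 9.63, 9.39 and 9.73, with differences from WT of -0.24 and 0.10. Fetub, a fetuin family protease inhibitor, stood at 8.12 in WT, 8.89 in AireKO and 8.84 in Sirt1cKO, higher in both knockout libraries by 0.77 and 0.71, and past 2-fold in AireKO only after median centring, at 1.04. Rbp4, which carries retinol with transthyretin, and Ambp, the precursor of alpha-1-microglobulin and bikunin, were above background in WT alone, at 6.21 and 6.59, against 5.88 and 5.92 in AireKO and 5.58 and 6.05 in Sirt1cKO. Afp, the fetal counterpart of albumin, and Ahsg, fetuin A, were within background in all 3 libraries.

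Because Alb was the gene counted as lower in both knockout libraries, the 250 bases before its RefSeq start are shown (GRCm38.p6, chr5:90460620-90460869, plus strand), with capitals marking, in this order, a match to the C/EBP pattern TTGCNNNAA on the opposite strand and a match to the HNF1 pattern GTTAATNAT.
Alb: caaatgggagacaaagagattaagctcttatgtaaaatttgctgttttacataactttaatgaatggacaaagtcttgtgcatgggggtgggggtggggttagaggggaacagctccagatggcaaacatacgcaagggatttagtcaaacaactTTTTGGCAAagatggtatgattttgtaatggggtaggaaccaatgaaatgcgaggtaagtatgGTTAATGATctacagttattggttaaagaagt
The matches lie 95 to 87 and 32 to 24 bases before the start and do not overlap. A promoter was listed for 31 of the 38 genes, and 6 of them held the C/EBP pattern on either strand, against 9.36% of all 27025 genes with a listed promoter. The HNF1 pattern was found in 4 of 31, those of Alb, Afp, Fga and Hc, against 0.866% of all genes. Of these holders, Afp, Fga and Hc were within background in each library, as were Ahsg, Fga and C6 among those with the C/EBP pattern. The HNF1 and NF-kB patterns were shortened by 1 letter after a first search, in which the longer HNF1 pattern was found in 2 of 31, not in Alb, against 0.440%, and the longer NF-kB pattern in 1 against 1.65%. The HNF4 pattern CAAAGTCCA was found in 0 of 31 against 0.451%, the NF-kB pattern GGGNNTTTC in 1 against 4.35%, and the TATA pattern TATAAA in 9 against 14.3%. These matches describe letters and do not show that a factor binds.

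The apolipoproteins, which package and direct lipids in plasma, were the role least affected by background, with 7 of 8 genes above it in each library. Apoa1, the main protein of high-density lipoprotein, stood at 10.59 in WT, 9.26 in AireKO and 10.18 in Sirt1cKO, 2.52-fold lower in AireKO and 1.33-fold lower in Sirt1cKO. Apoa4, made mainly by intestine, stood at 11.58, 10.46 and 11.22, and was 2.19-fold and 1.29-fold lower. Both genes were highest in WT and lowest in AireKO. Apoc3, an inhibitor of triglyceride clearance, went the other way, at 10.50, 11.64 and 11.65. It was 2.20-fold higher in AireKO and 2.22-fold higher in Sirt1cKO, and stayed past 2-fold in both after each of the 3 rescalings.

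Apoe, a ligand of lipoprotein receptors that macrophages also make, stood at 10.34 in WT, 9.41 in AireKO and 9.29 in Sirt1cKO, with differences of -0.93 and -1.06. The macrophage and dendritic list summed to an intensity of 7885 in WT, 5281 in AireKO and 6071 in Sirt1cKO, with 15, 11 and 13 of 16 genes above background, while its median log2 difference from WT was 0.06 and -0.10. Without Lyz2, the brightest gene of the list in WT, the sums were 3625, 3550 and 3615. Its part in the Apoe values was not tested. Apob, the structural protein of low-density lipoprotein, stood at 8.15, 8.15 and 7.92, and Apoa2 at 8.03, 7.97 and 7.67, so both lay close to WT in AireKO. Apoa5, an activator of lipoprotein lipase, stood at 6.73, 7.09 and 6.89, just above background in AireKO, and Apoh was within background throughout.

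Several genes of the set lie next to each other in the genome, in a RefSeq gene table whose assembly is GRCm38.p6, with no other protein-coding gene between them. Apoa1, Apoc3, Apoa4 and Apoa5 form such a run. Its members differed in direction. In AireKO the differences were -1.33 for Apoa1, 1.14 for Apoc3, -1.13 for Apoa4 and 0.37 for Apoa5. Alb and Afp are neighbours too, with Alb lower in AireKO and Afp within background. The run Saa3, Saa4, Saa1 and Saa2 had 4 differences below 0 in both knockout libraries. In AireKO only Saa3 of the run was above background, and in Sirt1cKO Saa1 was within background.

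**Figure D4:**
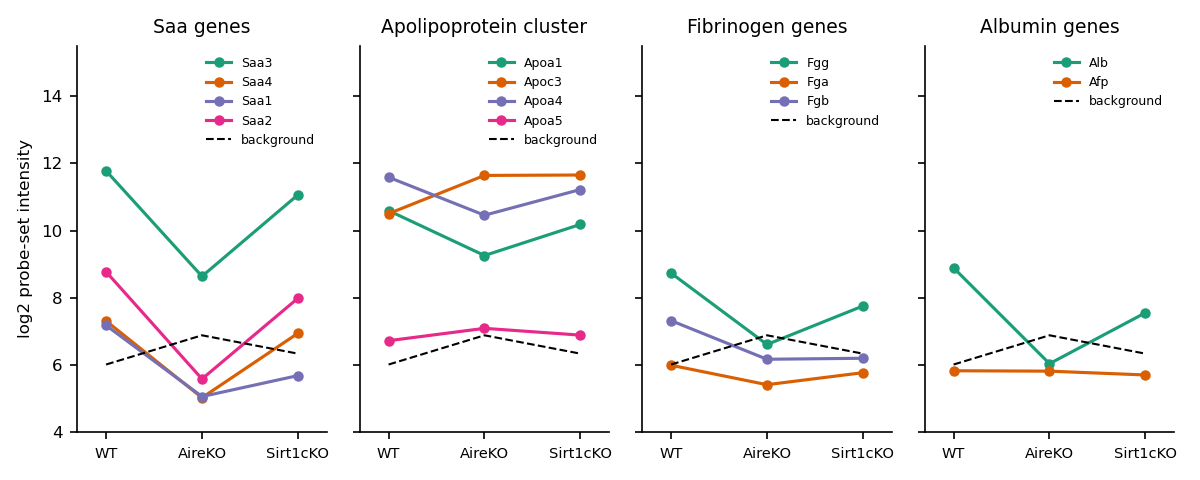
Log2 probe-set intensity (vertical axis) in WT, AireKO and Sirt1cKO for 4 groups of neighbouring or related genes; lines join the libraries of a gene to guide the eye, and the dashed line is the 95th percentile of olfactory receptor genes. Saa3 stands at 11.78 in WT and 8.64 in AireKO. Apoc3, which lies between Apoa1 and Apoa4 in the genome, stands at 10.50 in WT and 11.64 in AireKO.

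Among coagulation genes, 5 of 8 exceeded background in WT, against 2 in AireKO and 3 in Sirt1cKO. Fgg, which encodes the gamma chain of fibrinogen, the clot-forming protein, stood at 8.74 in WT, 6.61 in AireKO and 7.76 in Sirt1cKO. It was within background in AireKO, at least 3.60-fold lower than in WT, and 1.97-fold lower in Sirt1cKO. Fgb, the beta chain, stood at 7.32, 6.17 and 6.20, within background in both knockout libraries and at least 1.35-fold and 1.97-fold lower. Fga, the alpha chain, was within background in all 3 libraries for both of its probe sets. The fibrinogen genes are neighbours, in the order Fgg, Fga and Fgb.

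The clotting proteases showed small differences. F2, prothrombin, stood at 7.29, 6.92 and 6.94, close to background in AireKO, with differences of -0.38 and -0.36. F10, which cleaves prothrombin, stood at 7.40, 7.50 and 7.33, with differences of 0.10 and -0.07. F7, the partner of tissue factor, was above background in WT alone, at 6.07, where background was 6.02. Its readings were not lower in the knockout libraries, with plain differences of 0.32 in AireKO and 0.23 in Sirt1cKO. They lay within the higher backgrounds there, 6.89 and 6.34. F9 and Plg, the precursor of the clot-dissolving enzyme plasmin, were within background throughout.

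The acute phase genes held the widest differences of the set. Saa3, a serum amyloid A made outside the liver by epithelia and macrophages, stood at 11.78 in WT, 8.64 in AireKO and 11.06 in Sirt1cKO. It was above background in all 3 libraries, lowest in AireKO, 8.79-fold lower there than in WT and 1.64-fold lower in Sirt1cKO. Saa2, a circulating serum amyloid A, stood at 8.78, 5.59 and 7.99, within background in AireKO, at least 3.70-fold lower there and 1.73-fold lower in Sirt1cKO. Saa1, its close copy, stood at 7.18, 5.07 and 5.69, above background in WT alone, so its folds are only at least 1.23 and 1.79.

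The promoters of Saa1 and Saa2 are set side by side because these 2 genes are near-identical copies. The 250 bases before each RefSeq start (GRCm38.p6; Saa1 at chr7:46742981-46743230, minus strand, and Saa2 at chr7:46751583-46751832, plus strand) are given with capitals marking bases that differ or are unmatched in their alignment.
Saa1: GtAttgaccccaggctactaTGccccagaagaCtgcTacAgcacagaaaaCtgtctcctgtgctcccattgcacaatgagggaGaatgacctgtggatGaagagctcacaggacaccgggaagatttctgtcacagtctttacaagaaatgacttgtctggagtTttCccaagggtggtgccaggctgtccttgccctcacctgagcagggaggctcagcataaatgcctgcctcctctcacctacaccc
Saa2: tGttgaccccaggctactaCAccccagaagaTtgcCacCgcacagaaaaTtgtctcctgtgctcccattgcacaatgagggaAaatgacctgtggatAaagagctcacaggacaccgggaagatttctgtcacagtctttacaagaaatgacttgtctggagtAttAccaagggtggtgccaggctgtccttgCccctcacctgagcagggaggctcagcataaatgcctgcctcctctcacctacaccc
They shared 238 of 249 aligned bases, or 95.6%, whereas Saa3 shared 64.4% of 216 aligned bases with Saa1. None of these patterns was found in these windows of Saa1, Saa2 or Saa3. Whether RNA of one Saa gene also bound the probe set of the other was not tested, so the Saa1 and Saa2 values are uncertain as separate measurements. Saa4, the remaining gene of the run, stood at 7.31, 5.03 and 6.95. It was within background in AireKO, so at least 1.34-fold lower than in WT, and 1.29-fold lower in Sirt1cKO. Saa4 was named after its values were seen.

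Other acute phase genes differed from the Saa genes. Orm1, orosomucoid, a drug-binding plasma glycoprotein, stood at 10.61 in WT, 10.90 in AireKO and 11.58 in Sirt1cKO. It was highest in Sirt1cKO, by 0.96, and passed 2-fold there after each of the 3 rescalings, at 1.00 to 1.06. Itih1 and Itih3 encode heavy chains that bind hyaluronan. Itih1 stood at 6.81, 6.88 and 6.40 and Itih3 at 6.94, 6.57 and 6.57, both within background in AireKO alone. The AireKO reading of Itih1 was not lower than that in WT and lay just under the AireKO background of 6.89. Vtn, the adhesion protein vitronectin, stood at 6.05, 6.34 and 6.36, just above background in WT and Sirt1cKO and within it in AireKO. Apcs, serum amyloid P, was within background in all 3 libraries.

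Of the 4 complement genes on the array, Cfb alone was above background, in all 3 libraries. It encodes factor B, the protease of the alternative pathway, and stood at 9.31 in WT, 8.32 in AireKO and 9.19 in Sirt1cKO. It was 1.98-fold lower in AireKO, just under 2-fold, and differed by -0.11 in Sirt1cKO. The terminal components C6, C9 and Hc, which encodes C5, ranged from 5.03 to 6.11 and were within background in each library.

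The 2 knockout libraries were also set against each other. Saa3 was 5.36-fold higher in Sirt1cKO than in AireKO, and Saa2 at least 2.15-fold higher. These 2 genes are 5.26% of the set, against 1.39% of all genes, and 0 genes of the set were at least 2-fold lower, against 0.557%. Saa3 kept the count under all 4 scalings, while the bound of Saa2 came to 0.93 after median centring. Hp, at least 1.95-fold higher in Sirt1cKO, and Apoa1, 1.90-fold higher, lay just under 2-fold, and Hp passed it after quantile normalization and loess.

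Companion lists of related genes are given for context. Against WT, the shares of all genes on the array were 4.62% lower and 1.53% higher in AireKO. In Sirt1cKO they were 0.948% and 0.466%. At such shares a count of 0 does not set a list this short apart from other genes. Of 18 transcription regulators of hepatocytes on the array, 3 were at least 2-fold lower in AireKO and 0 higher. Foxa1, a forkhead factor of endoderm, stood at 9.96 in WT, 8.32 in AireKO and 9.67 in Sirt1cKO. Its difference in AireKO was -1.64, and it stayed past 2-fold after each of the 3 rescalings. Cebpa and Cebpb, C/EBP factors of acute phase genes, were lower by 2.06-fold and at least 2.20-fold. Cebpa lost the count after each rescaling and Cebpb after median centring. In Sirt1cKO, 0 of the 18 reached 2-fold in either direction, and Hnf4g, a nuclear receptor of gut and liver, stood at 8.66, 8.55 and 8.64.

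Of 20 hepatocyte metabolic enzymes, 2 were lower in AireKO and 0 higher, with 0 in either direction in Sirt1cKO. They were Adh1, an alcohol dehydrogenase that also oxidises retinol, at 10.46, 8.89 and 10.35, and Tdo2, which opens the ring of tryptophan, at 8.85, 7.11 and 8.18. Among 19 other acute phase and carrier genes, 1 was lower and 1 higher in AireKO, and 0 were lower and 2 higher in Sirt1cKO. The higher count in AireKO was 2 after quantile normalization and loess and 4 after median centring, with 1 lower each time. Lbp, which hands bacterial lipopolysaccharide to Cd14, was the lower one, at 8.54, 7.11 and 7.87. Hamp, the iron hormone hepcidin, stood at 11.05, 11.97 and 12.14, higher by 0.92 in AireKO and by 1.08 in Sirt1cKO. Its close copy Hamp2 was higher by 1.23 and 1.12, and the 2 may not be separate measurements.

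Among 12 other apolipoprotein and lipid transport genes, 3 were lower and 1 higher in AireKO, and 1 was lower and 0 higher in Sirt1cKO. Apoc1, which like Apoc3 restrains triglyceride clearance, was the higher one, at 7.88, 9.21 and 8.82. Apod, a lipocalin carrier of small lipids, was lower in both, at 10.52, 9.25 and 9.30, and the others were the lipid transfer gene Pltp, 2.03-fold lower, and the lipase gene Lpl, at least 2.01-fold lower in AireKO. Pltp lost the count after each rescaling and Lpl after median centring. Of 16 genes listed as receptors for these proteins, some of which are lipid exporters or carriers, 1 was lower in AireKO. It was Abcg1, a cholesterol exporter gene and not a receptor, at -1.33. Of 19 other coagulation genes, 2 were lower and 2 higher in AireKO and 0 reached 2-fold in Sirt1cKO. Kng1, a kininogen, was at least 2.64-fold lower in AireKO, and F3, the tissue factor gene that starts clotting, was 2.10-fold lower but lost the count after loess and median centring. Pros1, a cofactor of protein C, was 1.26 higher on the log2 scale, and Tfpi, the inhibitor of tissue factor, 1.07 higher. Of 15 other complement components and 11 complement receptors and regulators, 0 reached 2-fold in either direction against WT.

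Acute phase genes are induced by interleukin 6 and related cytokines. Of 15 genes of that signalling on the array, 1 was at least 2-fold lower in AireKO and 0 in Sirt1cKO, and 0 were higher. It was Il6st, the shared signalling receptor, at 9.22, 8.15 and 8.90, which no longer reached 2-fold after each of the 3 rescalings. Of 18 enterocyte genes, 4 were lower and 0 higher in AireKO, and 1 was lower in Sirt1cKO. After median centring these counts were 2 and 0, and after quantile normalization 4 and 0. Muc13, a membrane mucin, was among those lower in AireKO, at 9.76, 7.78 and 9.44, and Reg3b, an antibacterial lectin, was lower in both, at 8.54, 6.16 and 7.46. The enterocyte intensities summed to 15409 in WT, 9722 in AireKO and 15282 in Sirt1cKO. Reg3g, a related lectin with log2 levels of 13.09, 12.28 and 13.05, held much of these sums, which were 6706, 4763 and 6782 without it. In sorted bulk cells, fewer cells of a type and less RNA per cell cannot be told apart.

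Markers of other cells differed in the same libraries. Of 10 neutrophil genes, 5 were at least 2-fold lower in AireKO and 3 in Sirt1cKO, with a summed intensity of 5703 in WT, 1094 in AireKO and 2954 in Sirt1cKO. Without Ly6g, the brightest in WT, the sums were 3700, 998 and 2164. Ly6g, a surface marker of granulocytes, stood at 10.97, 6.58 and 9.62, at least 16.9-fold lower in AireKO and 2.54-fold lower in Sirt1cKO. Ltf, the granule protein lactoferrin, was at least 9.58-fold lower in AireKO, and S100a8, a calcium-binding protein of neutrophils, was 7.50-fold lower in AireKO and 3.52-fold lower in Sirt1cKO. Mpo, the granule peroxidase, was the other gene lower in both, by at least 2.57-fold and by 2.20-fold. Other genes of the list did not reach 2-fold against WT. S100a9 stood at 8.98, 8.08 and 9.18, highest in Sirt1cKO. Camp differed by -0.41 in AireKO and -0.52 in Sirt1cKO. Elane was above background in WT alone, at 6.15. Its reading in AireKO was 6.55, and that in Sirt1cKO was 0.15 above WT, both within background. Across the list, 8, 3 and 7 genes were above background, and Retnlg and Cxcr2 were within it in all 3 libraries. Of 16 macrophage and dendritic genes, 2 were lower in AireKO, Lyz2 at -1.30 and Cd14 at -1.56, both past 2-fold after each of the 3 rescalings. Fibroblast genes summed to 2448, 5281 and 3055, but to 1365, 1248 and 1182 without Dcn, which was higher by 1.90 in AireKO. Pdgfrb, a growth factor receptor, was the 1 fibroblast gene counted as lower, at -1.02 in AireKO, and lost the count after each of the 3 rescalings. Thymocyte genes were summed at 1417, 1811 and 1831, B cell genes at 1367, 1557 and 1388, and endothelial genes at 925, 1026 and 1094. Their part in the differences of the Saa, Alb and Apo genes was not tested.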

How the data were processed

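Each library had 1 column of deposited intensity values, all positive and on a linear scale. The submitters' processing notes name RMA for them; its version, the annotation and the step back to a linear scale are each not given in the sources used here. Log2 was taken here. Of 34760 probe sets, 21640 had 1 gene symbol, 1321 several and 11799 none listed; only the first were used, and the brightest mean probe set stood for a gene. All 38 genes matched RefSeq by Entrez identifier.

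A difference was counted at 2-fold, with the dim side set to the 95th percentile of 1027 olfactory receptor genes of its library. All genes on the array were counted the same way, with no test, since each genotype has 1 library. Members and lists were chosen with earlier results of these data known. Named genes are all 39 members, the targeted genes and some genes of the companion lists. From each list came up to 3 with the highest WT value, plus those counted against WT where 3 or fewer are, per direction. Saa4, the sex-linked genes, H2-Ea, Retnlg, Cxcr2, S100a9, Camp and Elane were added. Alternatives were quantile normalization, loess (span 0.3), median centring, other percentiles, no floor, mean probe sets, exchanged labels and other folds. The code, in Python 3.11.15 with pandas 2.3.3, statsmodels 0.14.6 and numpy 2.4.6, was tested on simulated data.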

Additional observations from a re-analysis of the deposited data

How the results depend on the processing

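No paired analysis was possible because each genotype had 1 library and the labels give no replicate numbers. Counts of the 38 genes are given as lower and higher. For AireKO minus WT, 7 and 1 as reported, they were 11 and 2 at 1.5-fold, against 13.48% and 5.09% of all genes. The 2 of 38 higher at 1.5-fold lie near that share. They were 4 and 0 at 3-fold, against 0.94% and 0.36%, and 5 and 2 after median centring, against 2.25% and 3.37%. For Sirt1cKO minus WT, 2 and 1 as reported, they were 9 and 3 at 1.5-fold, against 5.11% and 2.54% of all genes. At 3-fold they were 0 and 0, against 0.10% and 0.05%. They were 1 and 2 after quantile normalization, against 0.73% and 0.49%, and 2 and 2 after loess, against 0.80% and 0.54%. After median centring they were 1 and 2, against 0.64% and 0.65%. With background at the 90th percentile they were 4 and 1, against 1.04% and 0.51%, and with no floor also 4 and 1, against 1.13% and 0.58%. For Sirt1cKO minus AireKO, 0 and 2 as reported, the higher count was 9 at 1.5-fold, against 6.45% of all genes. It was 1 at 3-fold, against 0.25%, 1 after median centring, against 0.83%, and 1 with background at the 99th percentile, against 1.10%. It was 5 with the 90th percentile, against 1.535%, and 5 with no floor, against 1.74%. With the knockout labels exchanged, the lower counts against WT were 2 for AireKO and 7 for Sirt1cKO, those between the knockouts were 2 lower and 0 higher, and the genes above background were 23 in AireKO and 15 in Sirt1cKO. Saa2 and Saa3 then differed by -1.10 and -2.42 in Sirt1cKO minus AireKO, which the exchange itself turns.

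The median over all 38 genes, for AireKO minus WT, was -0.36 after quantile normalization and after loess and 0.10 after median centring, and for Sirt1cKO minus AireKO 0.18, 0.16 and -0.15 in the same order. The change of sign under centring follows from its shift of all genes. The floor cannot alter a median of plain differences, so it was not varied there; with dim genes at their bound, an alternative chosen after seeing the data, the medians were -0.08, -0.24 and 0.02. Other counts of the 38 genes stayed within 1.5 times of those reported. Of the companion lists, 1 mTEC identity, 1 thymocyte and 1 B cell gene were higher in AireKO after median centring, and 1 lipid transport gene in Sirt1cKO after loess and median centring, against 0 in each as reported. Sums of companion lists without their brightest gene in WT were also chosen after seeing the data. Against WT, 8 genes have only a bound and 15 no fold in AireKO, and 3 and 12 in Sirt1cKO, and 1 library a genotype leaves no measure of error.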
